A study of Mus musculus with 8 samples.

Results

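A set of 9 genes of epithelial sodium, chloride and bicarbonate transport were followed through the ileum of diabetic mice. They were the sodium/hydrogen exchangers Slc9a3 and Slc9a2, the chloride/bicarbonate exchangers Slc26a3 and Slc26a6, the chloride channel Cftr, the cotransporters Slc12a2 and Slc4a4, the sodium pump subunit Atp1b1 and the carbonic anhydrase Car4. The 9 genes were chosen by their gene symbols, and all 9 were found on the array, out of 19505 named genes. Each had 1 probe set, a group of array probes read out as 1 value.

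RNA of 1 piece of ileum per mouse, about 4 cm long, was measured on 8 Affymetrix arrays. The voglibose group (n = 4) consisted of male KKAy mice, 14 weeks old at about 30 g, that received voglibose at 1 mg/kg by gavage once a day for 8 weeks. The water group (n = 4) consisted of male KKAy mice of the same age and weight that received the same volume of water. KKAy mice carry the yellow agouti allele and become obese and diabetic, and all 8 mice were kept on high-fat chow (45% of energy as fat), started 4 weeks before treatment. No lean mice and no mice on plain chow were analysed here, so the comparison is between treated and untreated diabetic mice. Voglibose blocks the brush border enzymes that release glucose from starch and sucrose. The question asked of these genes was whether that treatment changed them, and how they varied with the ileal marker Fabp6.

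Salt absorption across the small intestine couples an apical sodium/hydrogen exchanger to an apical chloride/bicarbonate exchanger, so that sodium and chloride enter together while protons and bicarbonate leave. Secretion runs the other way: a basolateral cotransporter loads the cell with chloride or bicarbonate, and the apical Cftr channel lets it out. The sodium/potassium pump on the basolateral side drives both, and carbonic anhydrases supply the protons and bicarbonate. Absorption is a task mainly of villus cells and Cftr-dependent secretion mainly of crypt cells, and the set of transporters changes along the length of the intestine.

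The pieces differed in RNA markers of intestinal region before any comparison of treatment. Whether this came from where a piece was cut or from expression of the markers was not tested. Fabp6, the ileal bile acid binding protein, had log2 signals of 8.14, 3.54, 10.78 and 11.68 in voglibose mice 1 to 4, against 8.51, 17.50, 14.11 and 4.01 in water mice 1 to 4. Voglibose mouse 2 and water mouse 4 thus lay close to 4.05 to 4.18, the lower quartiles of the 8 arrays, and water mouse 2 lay among the brightest signals. Slc10a2, the ileal bile acid transporter, gave nearly the same order of mice: 8.13, 6.12, 10.42 and 10.54 in voglibose mice, and 8.96, 13.52, 10.07 and 5.69 in water mice. The label ileum is therefore not borne out by Fabp6 in 2 of the 8 pieces.

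Genes of the upper small intestine ran the other way. Gata4, a transcription factor of duodenum and jejunum, had 11.75, 12.24, 10.73 and 10.65 in voglibose mice, against 11.48, 9.41, 11.48 and 12.13 in water mice. Fabp1, the liver-type fatty acid binding protein, had 14.58, 16.22, 14.28 and 13.97 in voglibose mice and 15.27, 12.54, 14.71 and 16.11 in water mice. Both were highest in the 2 mice with the least Fabp6 and lowest in water mouse 2. The colon markers Car1 and Hoxb13 stayed at or below 4.26 and 3.42 in all 8 mice. The mean of all 8 colon markers measured, as the deviation from its average, ran from -0.16 to 0.35 in voglibose mice and from -0.16 to 0.31 in water mice. It was highest in voglibose mouse 2 and water mouse 4. In voglibose mouse 2 Sycn reached 6.59, against at most 3.84 in the other 7 mice. The pancreas markers described below were highest in that mouse too, at a list mean of 3.66. The part of pancreatic RNA in its Sycn value was not tested. In water mouse 4 Slc37a2 reached 7.81, against at most 5.72. Aqp4 was highest in the same mice, at 8.89 in voglibose mouse 2 and 9.01 in water mouse 4.

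Of the 13 distal markers besides Fabp6, 8 correlated with it at an exact permutation p under 0.05, all positively, against 5.19% of all probe sets. Of 18 proximal markers 14 did, all negatively, against 5.04% of all probe sets.

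Marker lists of neighbouring tissue also differed between mice. Means of 6 pancreas markers, as deviations from their average over the 8 mice, ran from -0.65 to 3.66 in voglibose mice and from -0.60 to -0.45 in water mice. The value of 3.66 was that of voglibose mouse 2, where the acinar enzymes Cpa1, Ctrb1 and Prss2 reached 12.01, 11.17 and 10.77, against at most 5.37, 3.31 and 5.15 in the other 7 mice. For 7 smooth muscle markers the means ran from -0.29 to 0.74 in voglibose mice and from -1.46 (mouse 4) to 1.51 (mouse 2) in water mice. Markers of enterocytes differed less, from -0.063 to 0.14 in voglibose mice and from -0.24 to 0.063 in water mice. Goblet cell markers ran from -0.47 to 0.27 in voglibose mice and from -0.46 to 0.39 in water mice, and leukocyte markers from -0.39 to 0.50 in voglibose mice and from -1.06 to 0.67 in water mice. In RNA of whole tissue, fewer cells of a type and less RNA per cell cannot be told apart.

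**Figure D1:**
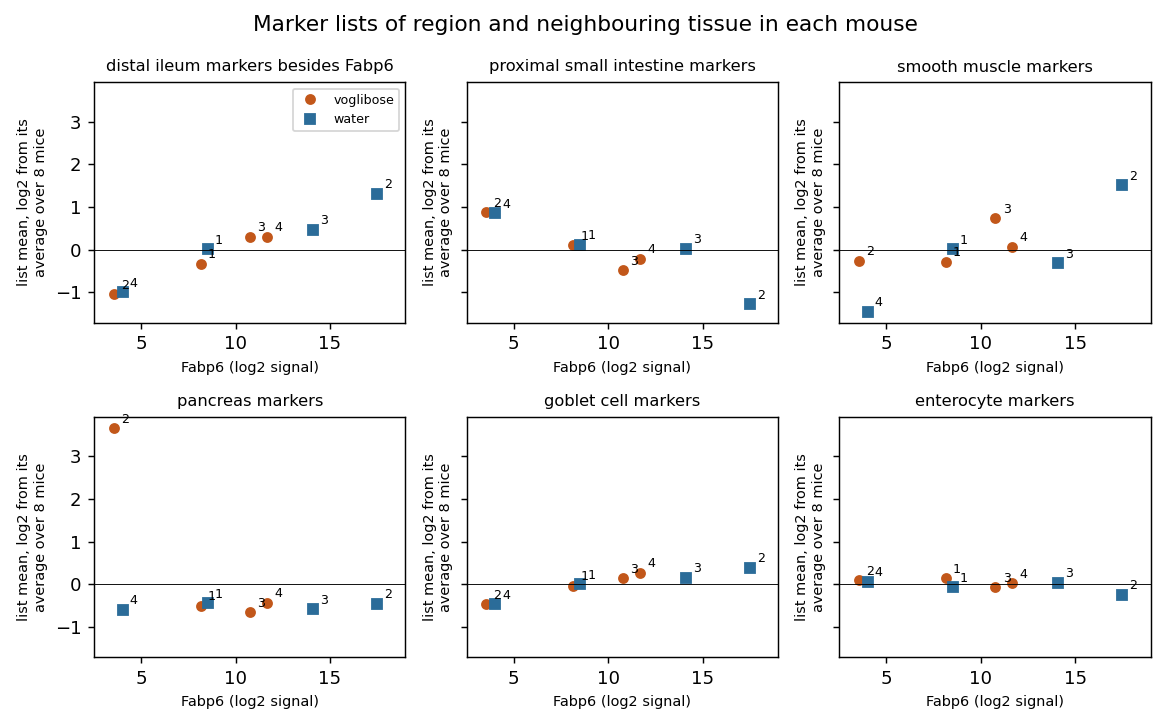
Mean of each marker list per mouse (log2 signal, as the deviation from the average of the list over the 8 mice) against the Fabp6 signal of the same mouse, with voglibose mice as circles, water mice as squares and the mouse number beside each. Along the axis the mean of 13 distal markers besides Fabp6 runs from -1.05 in voglibose mouse 2 to 1.31 in water mouse 2, and that of the proximal markers from 0.88 to -1.29 in the same mice. The muscle markers are highest in water mouse 2 at 1.51, and pancreas markers stand out in voglibose mouse 2 at 3.66.

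Fabp6 and 2 members are shown by the DNA before their start sites. Fabp6 orders the mice, and Slc9a3 had the steepest slope against it among the members. Slc26a3 was picked because it was the member with a repeated match to 1 of the motifs below. The sequences are from RefSeq (GRCm38.p6) and run 5′ to 3′ on the strand of the gene, 250 bases before and 50 after the start site. Capitals mark matches on either strand to 4 short motifs of intestinal transcription factors, which were chosen after seeing the data. GATA factors, more active in the upper small intestine, were searched as AGATAA. The caudal factors of the CDX family were searched as TTTATG. For the nuclear receptor HNF4 the letters were CAAAGT. For the homeobox factor HNF1 the letters were GTTAAT.
Fabp6 (chr11:43601513-43601812, minus strand): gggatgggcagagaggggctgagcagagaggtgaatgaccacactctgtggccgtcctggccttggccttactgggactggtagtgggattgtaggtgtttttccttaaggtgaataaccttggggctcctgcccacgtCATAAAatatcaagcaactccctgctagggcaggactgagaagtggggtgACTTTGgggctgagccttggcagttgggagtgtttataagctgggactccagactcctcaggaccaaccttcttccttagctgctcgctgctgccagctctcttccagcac
Slc9a3 (chr13:74121163-74121462, plus strand): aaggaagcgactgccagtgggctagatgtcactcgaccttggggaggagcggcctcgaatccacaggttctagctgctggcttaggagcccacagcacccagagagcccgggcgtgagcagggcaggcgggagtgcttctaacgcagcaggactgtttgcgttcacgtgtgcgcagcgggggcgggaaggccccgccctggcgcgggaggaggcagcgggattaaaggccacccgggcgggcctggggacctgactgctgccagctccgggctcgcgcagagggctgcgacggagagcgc
Slc26a3 (chr12:31437969-31438268, plus strand): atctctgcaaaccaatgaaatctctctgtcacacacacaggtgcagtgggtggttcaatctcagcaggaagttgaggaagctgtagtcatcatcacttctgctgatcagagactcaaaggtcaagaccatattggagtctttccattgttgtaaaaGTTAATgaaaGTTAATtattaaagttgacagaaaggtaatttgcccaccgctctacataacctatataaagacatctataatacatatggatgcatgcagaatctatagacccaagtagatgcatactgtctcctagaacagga
In the Fabp6 window the CDX letters (111 bases before the start, on the reverse strand) and the HNF4 letters (61 bases before, also reverse) each occurred 1 time. Slc26a3 held the HNF1 letters at 94 and at 84 bases before the start, and the Slc9a3 window held no match to any of the 4 motifs. Of all 32851 promoter windows of this length, 11.9% held the CDX letters, 14.4% the HNF4 letters, 7.1% the HNF1 letters and 11.2% the GATA letters. Of the 9 members 7 had an entry in the table, 8 windows in all, and the only other match was the HNF4 letters in 1 of 2 windows of Slc4a4, 176 bases before its start. These matches are letters in a window and not sites known to be bound.

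None of the 9 genes differed between voglibose and water mice beyond the spread between mice. Limma called 0 of 9 at an adjusted p under 0.05, as it called 0% of all 22206 probe sets, and 0 of 9 had an unadjusted p under 0.05, against 7.52% of all probe sets. In 0 of 9 did the 4 voglibose mice lie all above or all below the 4 water mice, which happened in 4.35% of probe sets. Of the members, 5 were higher and 4 lower in voglibose mice, with a median difference of 0.07 on the log2 scale, beside -0.0050 over all probe sets. Unadjusted p-values ran from 0.122 to 0.847 and adjusted ones from 0.731 to 0.983 (limma, Benjamini-Hochberg over all probe sets).

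Slc9a3, the main apical sodium/hydrogen exchanger of the absorbing villus cell, had the widest range of the members. Its signal was 14.19, 14.79, 13.69 and 13.60 in voglibose mice, against 14.03, 12.47, 14.19 and 15.11 in water mice. Both extremes were water mice, mouse 2 at the bottom and mouse 4 at the top, and the voglibose values lay inside that span. The whole range was 2.64, a 6.23-fold spread, and 1.18% of all probe sets had a wider one. Group means were 14.07 ± 0.55 in voglibose and 13.95 ± 1.10 in water mice (SD, n = 4 each), which differ by 0.12 (95% confidence interval -0.91 to 1.14). The sign of this difference turned when water mouse 2 (-0.38) or voglibose mouse 2 (-0.12) was left out.

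Slc9a2, a second apical exchanger of the same family, was among the steadiest members. It had 13.25, 13.27, 13.29 and 12.96 in voglibose mice, and 13.19, 13.64, 13.52 and 13.43 in water mice. Voglibose mouse 4 stood below the other 3 voglibose mice, which were within 0.04 of each other. Water mouse 1 lay between voglibose mouse 4 and these 3 mice. The difference of -0.25 ± 0.15 (SE; interval -0.58 to 0.079) had the smallest p of the 9 genes, an unadjusted 0.122 from limma.

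Slc26a3, the chloride/bicarbonate exchanger whose loss in humans causes congenital chloride diarrhoea, had 14.34, 14.76, 15.00 and 14.97 in voglibose mice and 14.50, 15.35, 14.95 and 14.99 in water mice. Mouse 1 was the lowest in both groups, and the rest of the values overlapped. Means were 14.77 ± 0.30 and 14.95 ± 0.35 in voglibose and in water mice (SD, n = 4 each), and the difference was -0.18 (interval -0.64 to 0.28). It was -0.038 without voglibose mouse 1 and -0.33 without water mouse 1.

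Slc26a6, the exchanger of the upper small intestine that also carries oxalate, had 13.36, 13.71, 13.34 and 13.58 in voglibose mice, against 13.23, 12.75, 13.17 and 13.81 in water mice. As with Slc9a3, the lowest and the highest value came from water mice 2 and 4. The difference was 0.26 ± 0.21 (SE), with an interval from -0.21 to 0.72. Without water mouse 4 it was 0.45, at an unadjusted p of 0.0294 and an adjusted p of 0.773, and without water mouse 2 it was 0.094 (limma).

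Of the secretory genes, Cftr had 13.32, 13.65, 13.02 and 13.29 in voglibose mice and 13.43, 12.97, 13.18 and 13.42 in water mice. Its highest value belonged to voglibose mouse 2, the piece with pancreas transcripts. Cftr is also a channel of pancreatic ducts, and the part of pancreatic RNA in that value was not tested. The difference of 0.07 (interval -0.31 to 0.45) was -0.040 without that mouse and -0.023 without water mouse 2.

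Slc12a2, the basolateral cotransporter that loads secreting cells with chloride, had 13.30, 13.13, 13.40 and 13.54 in voglibose mice, against 13.21, 13.86, 13.43 and 13.02 in water mice. The voglibose mice lay within the range of the water mice, from mouse 4 to mouse 2. The difference was -0.038, with an interval from -0.46 to 0.38, and it turned to 0.12 without water mouse 2, 0.033 without voglibose mouse 2 and 0.022 after a further quantile normalization.

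Slc4a4, a basolateral sodium/bicarbonate cotransporter, had 11.21, 10.88, 11.04 and 11.26 in voglibose mice and 10.69, 11.13, 11.44 and 10.41 in water mice. Water mice spanned 1.03 and voglibose mice 0.38, with the voglibose mice inside. The difference was 0.18 (interval -0.30 to 0.66), and 0.011 without water mouse 4 and 0.35 without water mouse 3.

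Atp1b1 encodes the beta subunit that brings the sodium/potassium pump to the membrane. Its values were 17.03, 17.05, 16.77 and 16.74 in voglibose mice, and 16.84, 16.16, 16.95 and 16.83 in water mice. Water mouse 2 stood apart below the other 7 mice. With it the difference was 0.20 (interval -0.21 to 0.62), and without it 0.024.

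Car4, a carbonic anhydrase anchored on the outer face of the membrane, had 11.94, 12.16, 11.39 and 11.76 in voglibose mice, against 12.11, 13.40, 11.51 and 11.85 in water mice. Water mouse 2 again stood apart, here above the others. Means were 11.81 ± 0.33 in voglibose mice and 12.22 ± 0.83 in water mice (SD, n = 4 each), and the difference of -0.41 (interval -1.17 to 0.36) was -0.011 without water mouse 2. The largest difference among the 9 genes thus rested on 1 water mouse.

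**Figure D2:**
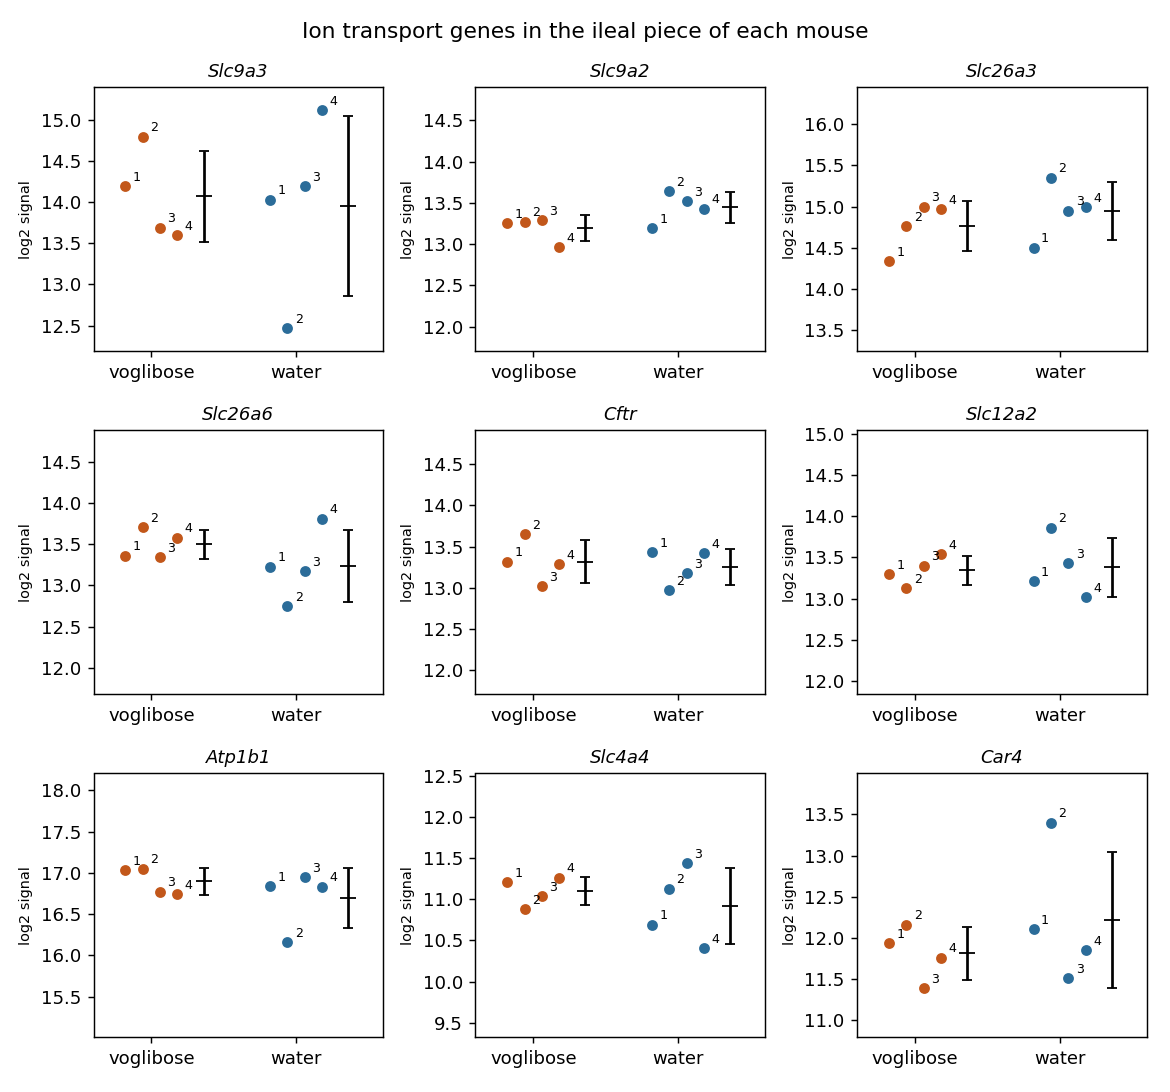
Log2 signal of each of the 9 genes in the 4 voglibose mice (left) and 4 water mice (right), with mouse numbers beside the points and the group mean with its SD to the right. Every panel spans the same 3.2 log2 units, so that the 2.64 range of Slc9a3 and the 0.68 range of Slc9a2 can be compared by eye.

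Over the 8 mice, Slc9a3, Slc26a6, Cftr and Atp1b1 were lower, and Slc12a2 higher, where Fabp6 was higher. Of the 9 genes, 5 passed an exact 2-sided permutation test of Pearson's r at an unadjusted p under 0.05, 4 with negative and 1 with positive r, against 10.2% of 22205 probe sets (5.04% negative and 5.19% positive). Adjusted over all probe sets, 0 of 9 passed, as did 0% of the array. The largest gap in Fabp6 was 4.13 of a range of 13.96, between 4.01 and 8.14. It set voglibose mouse 2 and water mouse 4 below the other mice. Leaving out these 2 mice was an alternative added after seeing the data. Without them 1 of the 5 members, Slc12a2, still passed (exact permutation p = 0.0111, n = 6). Slc26a3, which was not among the 5, then passed as well (exact p = 0.025). Whether slopes differed between voglibose and water mice was not tested.

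Slc9a3 declined most steeply. Pearson's r with Fabp6 was -0.88 (n = 8, exact permutation p = 0.00357, adjusted p = 0.273) and Spearman's rho -0.79 (exact p = 0.0248). A limma fit with group and Fabp6 together gave a slope of -0.16 ± 0.027 (SE) per log2 unit of Fabp6, with an interval from -0.22 to -0.098 and an adjusted p of 0.0240. It was the only member to pass that fit, in which 0.977% of probe sets passed. The fit was planned as an adjustment of the treatment difference, and its slope was read after seeing the data. The slope kept its sign without each mouse in turn, from -0.18 to -0.11, and the adjusted p was over 0.05 in 5 of these 8 refits, up to 0.337 without water mouse 4. Without voglibose mouse 2 and water mouse 4 the slope was -0.16 (adjusted p = 0.827).

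Slc26a6 and Cftr also declined with Fabp6, with r of -0.86 for both (exact permutation p = 0.00652 and 0.00826, n = 8, adjusted p = 0.299 and 0.312). The rank correlation (Spearman) was -0.81 for Slc26a6 and -0.86 for Cftr (exact p = 0.0218 and 0.0107). Their slopes of -0.058 ± 0.018 and -0.041 ± 0.017 (SE) did not pass over all probe sets (limma, adjusted p = 0.205 and 0.343). For the pump subunit Atp1b1 r was -0.70 (exact p = 0.0389, adjusted p = 0.464) and rho -0.67 (exact p = 0.0831). It passed in only 2 of the 8 refits that left out 1 mouse, and without water mouse 2 r was -0.34 (exact p = 0.436, n = 7).

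Slc12a2 climbed with Fabp6, and its order of mice was the closest to that of Fabp6 among the members. Its r was 0.94 (n = 8, exact permutation p = 0.000521, adjusted p = 0.194) and rho 0.93 (exact p = 0.00223). The slope was 0.055 ± 0.016 (SE; limma, adjusted p = 0.156). Slc4a4 had a like slope, 0.058 ± 0.019 (SE; adjusted p = 0.218), but its r of 0.68 missed the unadjusted threshold (exact p = 0.0598), and rho was 0.64 (exact p = 0.0962). With the group means taken out of both genes, r of Slc4a4 was 0.83, given as a description. The test of pairings over all 8 mice is not exact for such centred values. Of 7 smooth muscle markers 5 had a positive r with Fabp6 at an exact p under 0.05, against 5.19% of all probe sets, while Des and Lmod1 had an exact p of 0.0593 and 0.369. Of 8 goblet cell markers 5 also had a positive r at that threshold, while Muc2, Fcgbp and Spdef did not pass. The part of muscle or goblet cell RNA in the values of Slc12a2 and Slc4a4 was not tested.

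The remaining 3 members did not pass either test over the 8 mice. For Slc26a3 r was 0.54 and rho 0.50 (exact permutation p = 0.170 and 0.216, n = 8), and for Slc9a2 r was 0.37 and rho 0.36 (exact p = 0.375 and 0.389). Over refits without 1 mouse, r of Slc26a3 ran from 0.22 to 0.72. Without voglibose mouse 2 and water mouse 4, an alternative added after seeing the data, it was 0.91 (exact p = 0.025, n = 6). Car4 had r of 0.36 and rho of -0.17 (exact p = 0.400 and 0.703), and r was -0.71 without water mouse 2, so the sign of its relation rested on that mouse. Water mouse 2 and voglibose mouse 2 were farthest from the median of Fabp6. Without these 2 mice Slc12a2 kept r of 0.90 (exact p = 0.0167, n = 6) and Slc4a4 had 0.88 (exact p = 0.0194). Slc9a3, Slc26a6 and Cftr had -0.73, -0.67 and -0.64 (exact p = 0.106, 0.154 and 0.169, n = 6), so that their relations no longer passed, and r of Atp1b1 was -0.0045 (exact p = 0.990). Slc26a3, Slc9a2 and Car4 then had r of 0.24, -0.079 and -0.58 (exact p = 0.663, 0.892 and 0.226, n = 6).

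**Figure D3:**
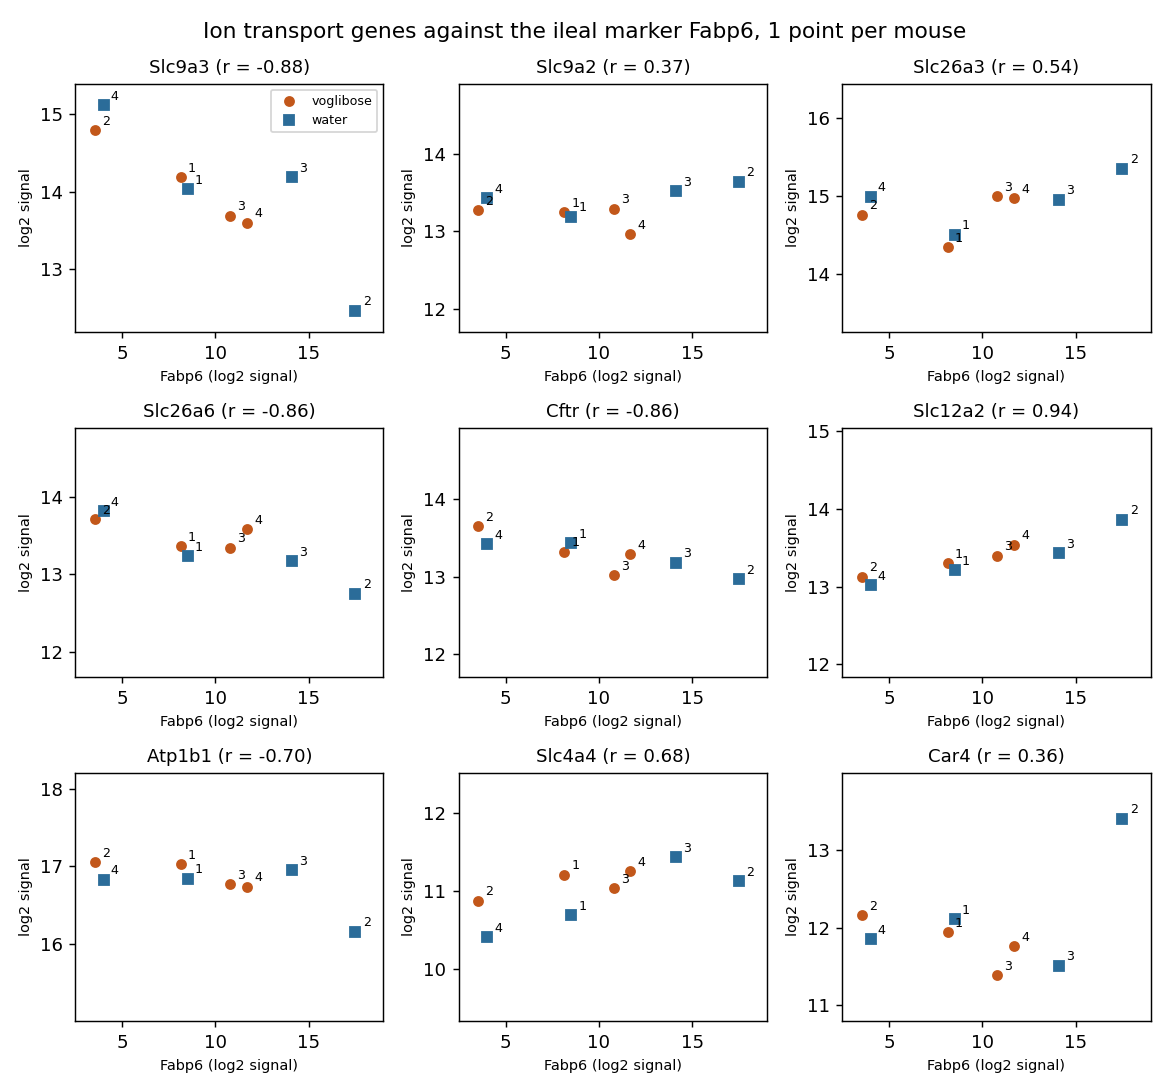
Log2 signal of each gene against the log2 signal of Fabp6, 1 point per mouse (circles voglibose, squares water, with mouse numbers), and Pearson's r over the 8 mice in the panel titles. Slc9a3 declines from 15.11 in water mouse 4 to 12.47 in water mouse 2, Slc12a2 climbs from 13.02 to 13.86 between the same mice, and Car4 reaches 13.40 in water mouse 2 alone.

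Fabp6 itself differed by -2.50 ± 2.58 (SE; interval -8.16 to 3.17; limma, unadjusted p = 0.353). With Fabp6 of each mouse in the fit, the difference between the groups changed sign for 3 members and still passed for none. The differences in that fit depend also on the offset of Fabp6 between the groups. For Slc9a3 it became -0.28 ± 0.24 (SE; interval -0.81 to 0.26), beside 0.12 ± 0.47 without Fabp6, so its interval narrowed. Slc4a4 had the largest positive difference in that fit, 0.33 ± 0.17 (interval -0.047 to 0.70; unadjusted p = 0.0810, limma). Cftr became -0.033 and Slc12a2 0.099. The adjusted p of the 9 genes ran from 0.609 to 0.968.

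**Figure D4:**
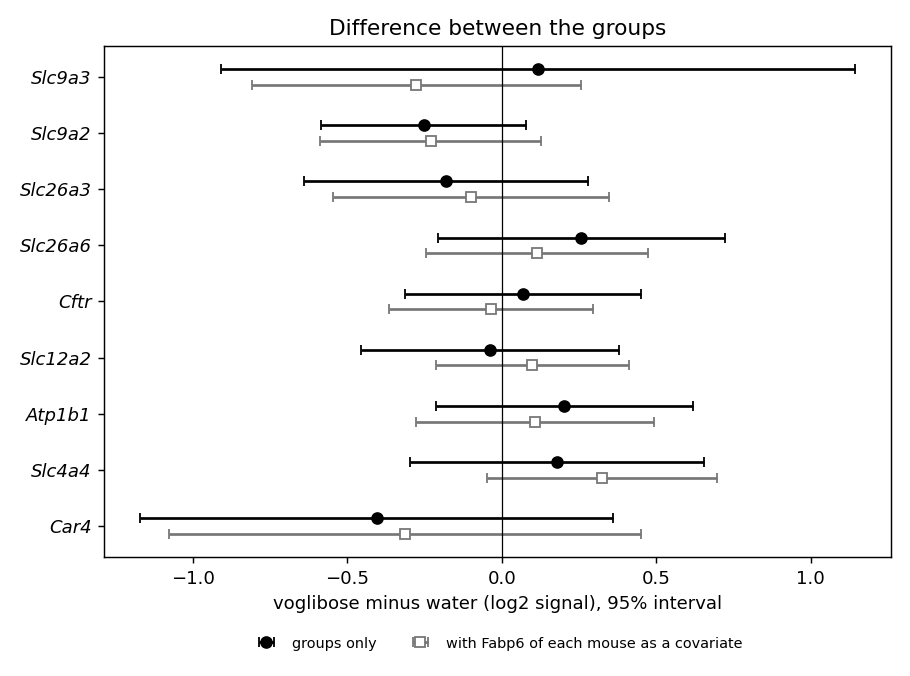
Voglibose minus water in log2 signal for each gene, with 95% intervals from limma, for the fit with groups alone (filled circles) and with Fabp6 of each mouse as a covariate (open squares). All 18 intervals cross 0, and that of Slc9a3 is narrower with Fabp6 in the fit.

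Genes whose pattern over the 8 mice was most like that of Slc9a3, the member with the widest range, were Agpat3, Slc25a45, Ckmt1, Ap1s3 and Rdh10. Their Pearson's r with Slc9a3 lay between 0.989 and 0.995, the highest among 19504 genes, given as a description. Ckmt1, a mitochondrial creatine kinase, had 17.12, 17.36, 16.79 and 16.85 in voglibose mice and 17.07, 16.41, 17.10 and 17.46 in water mice, again with water mice 2 and 4 at the ends. Agpat3, an acyltransferase of phospholipid synthesis, had 12.71, 13.20, 12.31 and 11.99 in voglibose mice, against 12.51, 11.04, 12.57 and 13.46 in water mice.

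Beyond the 9 members, 80 of 91 listed genes of ion transport and its control were measured, and limma called 0 of them after adjustment. In voglibose mice 42 were higher and 38 lower, with a median difference of 0.026. At an unadjusted p under 0.05 there were 3 higher and 2 lower, against 3.08% and 4.44% of all probe sets. Kcne3, the subunit that keeps the basolateral potassium channel of secreting cells open, had the smallest p of these genes. It had 12.24, 12.44, 12.68 and 12.76 in voglibose mice, against 13.21, 13.28, 12.91 and 12.98 in water mice, so that every voglibose mouse lay below every water mouse, as in 2.53% of all probe sets. The difference was -0.57 ± 0.16 (SE), at an unadjusted p of 0.00512 and an adjusted p of 0.652 (limma). Its channel partner Kcnq1 differed by 0.26 ± 0.17.

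Nr3c2, the mineralocorticoid receptor that mediates the action of aldosterone on sodium absorption, had 11.19, 11.19, 10.46 and 10.85 in voglibose mice and 10.21, 9.56, 10.21 and 10.65 in water mice. The groups overlapped in 1 mouse of each, and the difference was 0.77 ± 0.24 (SE; limma, unadjusted p = 0.00881, adjusted p = 0.652). Nr3c2 also declined with Fabp6, with r of -0.75 (exact permutation p = 0.0338, n = 8). Ezr, which encodes the membrane linker ezrin that holds Slc9a3 at the brush border, differed by 0.36 ± 0.15 (SE; unadjusted p = 0.0315, adjusted p = 0.658). The anion channel Best2 and the transporter Slc26a9 differed by 0.34 ± 0.15 and -0.38 ± 0.16, with signals below 5 in all 8 mice, under the array medians of 5.89 to 5.94.

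The other genes picked by the rule did not reach an unadjusted p under 0.05. Among sodium entry genes, the glucose cotransporter Slc5a1 differed by 0.42 ± 0.24 and the sodium channel subunit Scnn1a by -0.29 ± 0.18 (SE). The phosphate cotransporter Slc34a2 and the exchanger Slc9a8 differed by -0.31 ± 0.70 and 0.095 ± 0.21. Carbonic anhydrase Car12 differed by -0.39 ± 0.18 and the bicarbonate transporter Slc4a9 by 0.35 ± 0.17, and Car13 and Car8 by -0.25 ± 0.18 and -0.29 ± 0.28. Signals of Slc4a9 lay between 3.41 and 4.28 in all 8 mice, under the array medians of 5.89 to 5.94. Clca4b and Clca4a, which belong to the calcium-activated chloride channel regulators, differed by 0.033 ± 0.13 and 0.020 ± 0.17, the pump subunit Atp1b3 by -0.19 ± 0.18 and the potassium/chloride cotransporter Slc12a7 by 0.38 ± 0.34. Guca2b, which encodes the hormone uroguanylin that opens Cftr through its receptor Gucy2c, had 18.65 to 18.70 in voglibose mice and 18.58 to 18.62 in water mice. The groups did not overlap, as in 4.35% of all probe sets with both directions counted. The difference was 0.075 ± 0.12 (SE; limma, unadjusted p = 0.549). That SE draws on the variance of all probe sets. It is larger than the SDs of Guca2b, 0.026 in voglibose and 0.021 in water mice, so the p does not measure their spread. Guca2a, its relative guanylin, differed by -0.085 ± 0.38.

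Relations with Fabp6 were also found among the other transport genes. Of the 80 genes 22 had an exact permutation p under 0.05 for r with Fabp6, 13 positive and 9 negative, against 10.2% of all probe sets. After adjustment 4 passed the limma slope, against 0.977% of all probe sets. These 4, named after their values were seen, were Slc34a2, Car2, Fxyd3 and Ahcyl1. Without voglibose mouse 2 and water mouse 4 that fit called 0 probe sets. Car2, the cytosolic carbonic anhydrase, had 6.56, 9.84, 6.93 and 6.55 in voglibose mice and 7.06, 5.81, 7.07 and 11.19 in water mice. It stood out in the 2 mice with the least Fabp6 and its slope was -0.36 ± 0.058 (SE; adjusted p = 0.0210). Ahcyl1, also called IRBIT, a regulator of Slc9a3, Cftr and Slc4a4, had a slope of -0.085 ± 0.017 (adjusted p = 0.0453) and r of -0.96 (exact permutation p = 0.000372, n = 8). Slc34a2 had 15.30, 13.07, 16.48 and 15.64 in voglibose mice, against 15.79, 16.11, 16.17 and 13.64 in water mice, with a slope of 0.23 ± 0.046 (adjusted p = 0.0487). Fxyd3, a modulator of the sodium pump, had a slope of 0.11 ± 0.020 (adjusted p = 0.0273).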

How the data were processed

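The 9 members and all gene lists were chosen with earlier results of these data known. The authors deposited log2 signals per probe set. They were made with RMA and the Transcriptome Analysis Console, per the submitters' processing notes, which give no versions. The log2 scale was read from the values, and the genome build is not given in the sources used here. The arrays carry no read depth; the number of mice limits the precision (median SE of a difference 0.18). No scan date or slide is given in the labels, so a batch could not be tested.

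All 22206 probe sets, unfiltered, were fitted with limma 3.58.1 in R 4.3.3 (lmFit, eBayes, 2-sided, Benjamini-Hochberg at 0.05). Of these, 19572 carry 1 gene symbol in the platform annotation, 0 several and 2634 none, with symbols updated through the RefSeq table, and the brightest probe set stood for a gene. Differences are voglibose minus water. Relations with Fabp6 used all 40320 pairings of the 8 mice, with Python 3.11.15. Their p-values were adjusted over all probe sets except that of Fabp6, in place of the planned adjustment over the 9 genes alone. Other genes were named by a rule: per transport list, the 2 with the smallest p and the 2 brightest of the rest. The limma fit was checked on simulated data, and the exact test against the permutation test of SciPy on a short made-up example. The labels name no pairing of mice by replicate number. Same-numbered mice had correlations of deviations of 0.015, -0.32, 0.014 and -0.18, and voglibose mouse 2 with water mouse 4 had 0.40. As the mice also differed in markers of region, these values cannot decide whether same-numbered mice shared something the labels leave out.

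Alternatives were a further quantile normalization, median centring, a filter on dim probe sets, trended and robust or unmoderated variance, a replicate block, Fabp6 as a covariate, other region measures and each mouse left out. Leaving out water mouse 4 and voglibose mouse 2 together, with or without water mouse 2, was added after seeing the data.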

Additional observations from a re-analysis of the deposited data

Results flagged for a closer look

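Slc9a2 in voglibose mouse 4, at 12.96, lay far below the other 3 voglibose mice (gap 0.879 of the group's range). Atp1b1 in water mouse 2, at 16.16, lay far below the other 3 water mice (gap 0.848 of the range). Both gaps exceed Dixon's critical value for groups of 4 mice. In all 20 groups were examined, and chance flags about 1 in 20 of them.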

How the results depend on the processing

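Limma called 0 members and 0 probe sets under every alternative. The replicate block left the differences as they were and the count at an unadjusted p under 0.05 at 1529 probe sets and 0 members, beside 1671 and 0, and changed no call. Only 1 probe set per member exists, so averaging probe sets had no effect. The count of 1671 was 988 among probe sets above the median signal and ranged from 969 (without voglibose mouse 1) to 1906 with 1 mouse left out; the members ranged from 0 to 1. Over the 17 alternatives, 15 of 153 differences of single members turned sign, all of them not called. With Fabp6 as a covariate these were Slc9a3 (-0.28), Cftr (-0.033) and Slc12a2 (0.099), and after quantile normalization Slc12a2 (0.022). Without water mice 2 and 4 and voglibose mouse 2, an alternative added after seeing the data, they were Slc9a3 (-0.28), Slc26a3 (0.045), Cftr (-0.095), Slc12a2 (0.093) and Atp1b1 (-0.048). With 1 mouse left out, Slc9a3 ranged from -0.38 to 0.50, Cftr from -0.040 to 0.17, Slc12a2 from -0.16 to 0.12, and the median of the members from -0.040 to 0.17; that median was -0.033 with Fabp6 and -0.048 without the 3 mice. The count of members related to Fabp6 at an unadjusted p under 0.05 was 5, and 4 to 5 with 1 mouse left out, where 3 to 5 of the original 5 passed (3 without water mouse 2, when Slc4a4 passed too). Without water mouse 4 and voglibose mouse 2, also added after seeing the data, the count was 2. Of these, 1, Slc12a2, was among the original 5 and the other was Slc26a3. With 1 mouse left out, r of Slc9a2 ranged from -0.061 to 0.67 and of Car4 from -0.71 to 0.55. Slopes in these refits ranged from -0.0040 to 0.017 for Slc9a2 and from -0.052 to 0.068 for Car4. The slope called 0 to 1 members and 13 (without water mouse 4) to 397 (without water mouse 3) probe sets with 1 mouse left out, against 1 and 217, and 0 and 0 without water mouse 4 and voglibose mouse 2; with Slc10a2 in place of Fabp6 it called 507 probe sets. The cause of these shifts was not tested.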
